A study of Mus musculus with 14 samples.

Results

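The genes described here are 10 regulators of hair follicles and other ectodermal appendages: Shh, Ptch1, Edar, Lef1, Sox9, Lhx2, Gata3, Msx2, Foxn1 and Hoxc13. They were taken by name, but with earlier results of these data known. The tables hold 27179 genes in cultured keratinocytes and 24411 genes in epidermis, and all 10 are in both tables. Hair follicles, teeth and glands form where the ectoderm thickens into a placode and exchanges signals with the mesenchyme below it. Wnt signals act through Lef1 and its relatives, ectodysplasin acts through the receptor Edar, and Sonic hedgehog from the placode and later the hair matrix binds Ptch1 and releases the activity of Gli factors. The transcription factor p63, encoded by Trp63, is needed for the ectoderm to stratify and to form appendages.

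The study asked what the C-terminus of p63 does in mouse skin. RNA came from newborn mice that all carried Trp63-Ex13fl/fl, a Trp63 allele with exon 13 flanked by recombination sites. In the controls, called p63alpha, there was no Cre and the alpha C-terminus was kept, whereas mice called p63beta also carried KRT14-Cre, which removes the exon in cells that express, or descend from cells that expressed, keratin 14. Epidermis peeled from dermis after trypsin gave 4 p63alpha and 4 p63beta libraries, and primary keratinocytes grown from such epidermis in low-calcium medium gave 3 of each. The labels do not tie libraries to animals, so the p-values cover the spread between libraries, which may be partly technical.

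Library totals were 21290068 to 44909629 estimated counts in epidermis and 20688027 to 30066041 counted read pairs in keratinocytes. Trp63, the targeted gene, had 437 ± 159 CPM in p63alpha and 640.5 ± 112 CPM in p63beta epidermis (mean ± SD, n = 4 per genotype), where CPM is the count scaled to library size by TMM. The genotypes overlapped there, and the log2 fold change of 0.55 ± 0.26 was not called (SE; edgeR adjusted p = 0.9999). Its keratinocyte level was 183 ± 8.13 CPM in the p63alpha cultures against 364 ± 24.3 CPM in p63beta (SD, n = 3), with a log2 fold change of 0.99 ± 0.09 (SE; edgeR adjusted p = 0.0297). The keratinocyte groups did not overlap. DESeq2 also called Trp63 there (adjusted p = 1.61e-22), as did edgeR with the replicate number as a block (adjusted p = 0.0451). The edgeR call was lost when any 1 keratinocyte library was left out, with log2 fold changes of 0.93 to 1.03 (adjusted p = 0.0661 to 0.307). Such fits called only 1 to 4 genes in all. Whole-gene counts do not show whether the exon was removed. The 12 keratinocyte markers were all detected, with summed levels of 102380 to 178460 CPM in epidermis and 28019 to 41284 CPM in culture. The epidermis columns carry 2 naming series: WT3 and KO2 share theirs with the keratinocyte libraries, and the other 6, EP07 to EP12, have another.

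Promoter sequence from RefSeq, on GRCm38.p6, was at hand for 7 of the 10 genes, in 11 windows of 300 bases. Upstream stretches of 250 bases are shown for 2 of them, each ending at the base before the start site and written 5′ to 3′ on the strand of the gene. That of Edar, at chr10:58675697-58675946 on the minus strand, is shown because it holds the only match among the 11 windows to the LEF/TCF motif CTTTGAT, in capitals, 233 to 227 bases before the start. That of the distal Lhx2 start, at chr2:38339031-38339280 on the plus strand, is shown for contrast, with 72.8% G and C and 25 CG pairs.
Edar: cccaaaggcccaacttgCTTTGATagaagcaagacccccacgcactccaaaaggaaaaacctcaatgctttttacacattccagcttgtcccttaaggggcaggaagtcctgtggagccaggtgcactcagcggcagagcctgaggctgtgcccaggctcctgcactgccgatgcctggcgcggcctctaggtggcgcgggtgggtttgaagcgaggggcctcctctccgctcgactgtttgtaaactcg
Lhx2: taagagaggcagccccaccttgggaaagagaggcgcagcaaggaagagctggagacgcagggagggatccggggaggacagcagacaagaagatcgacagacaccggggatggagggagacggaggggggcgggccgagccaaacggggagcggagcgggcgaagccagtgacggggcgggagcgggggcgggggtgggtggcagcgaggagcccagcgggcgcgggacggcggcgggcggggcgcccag
CTTTGAT, on either strand, is in 3.73% of all 32851 RefSeq promoter windows of that length, so 1 match in 11 windows is no more than a description. None of the 11 windows holds GACCACCCA, the letters bound by Gli factors, found in 0.253% of all windows, or a pair of p63 half-sites CATG with 6 bases between them, found in 0.712%.

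The first question was whether epidermis without the alpha C-terminus differs in these genes. In p63beta epidermis 9 of the 10 had a lower mean than in p63alpha epidermis, with Sox9 the exception. Libraries varied within each genotype, least for Gata3, and no gene passed the test. None of the 10 was called by edgeR's quasi-likelihood test at an adjusted p under 0.05, where 0.232% of the 13796 genes tested were called. DESeq2, which called 0.987% of genes, and the authors' deposited table, with 0.896%, also called 0 of the 10. Unadjusted p was under 0.05 for Gata3 and Lef1, against 4.64% of all genes. The median log2 fold change of the 10 was -0.53, beside -0.00 over all genes, of which 50.7% were negative. Levels of p63alpha and p63beta libraries overlapped for each of the 10 genes, while 3.07% of all genes showed no overlap. In such bulk samples, fewer cells of a type and less RNA per cell cannot be told apart.

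**Figure D1:**
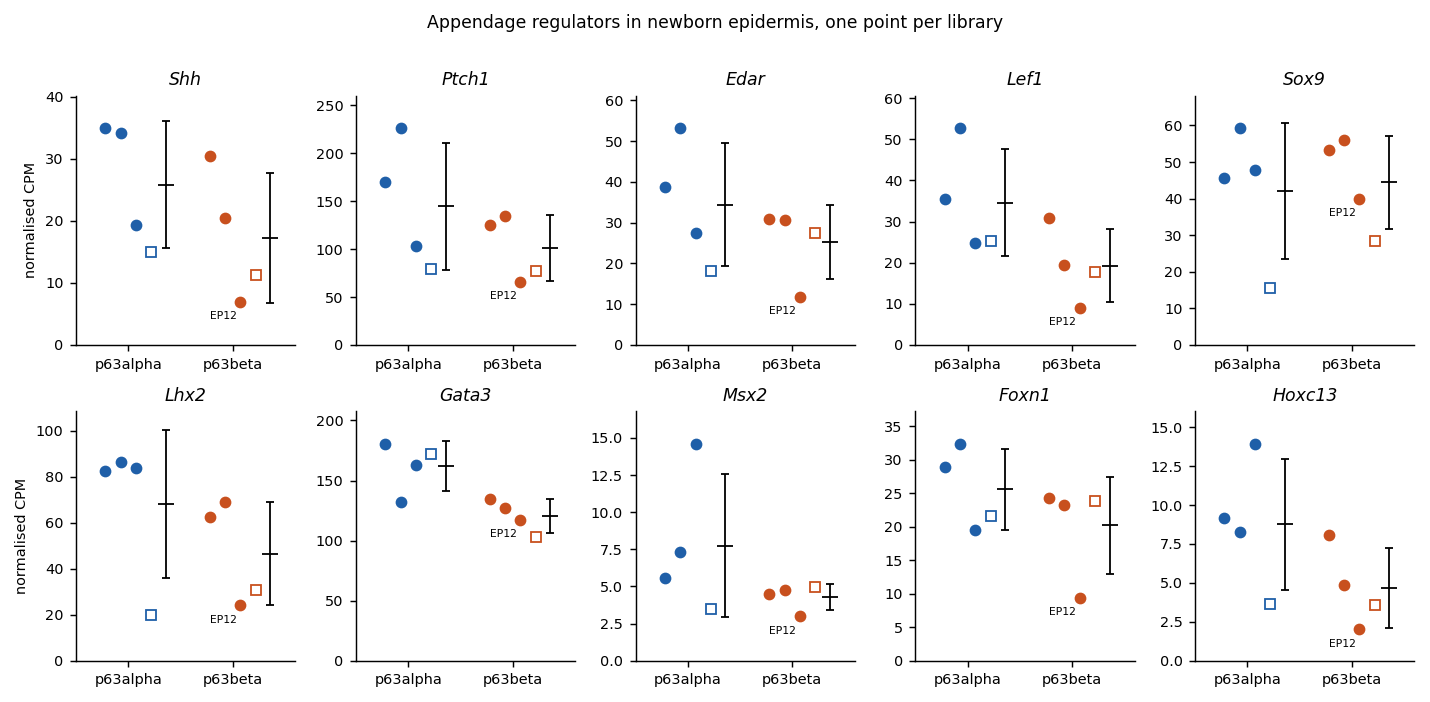
Levels of the 10 regulators in newborn epidermis, in CPM after TMM scaling on linear axes that start at 0, for 4 p63alpha (blue) and 4 p63beta (orange) libraries. Filled circles are the EP libraries, open squares WT3 and KO2, and black bars the mean ± SD. The 2 genotypes overlap in every panel, and EP12 is the lowest library for 7 of the 10 genes.

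Epidermis values below are in the order EP07, EP08, EP09 and WT3 for p63alpha, and EP10, EP11, EP12 and KO2 for p63beta. Shh, the secreted ligand (chr5:28456840-28467101, minus strand, mm10), measured 35.0, 34.2, 19.4 and 15.0 CPM in p63alpha and 30.5, 20.5, 6.92 and 11.3 CPM in p63beta. Its highest p63beta library lay above 2 of the p63alpha libraries, and EP12 and KO2 were the lowest. The log2 fold change, p63beta over p63alpha, was -0.58 ± 0.44 (SE; edgeR adjusted p = 0.9999). Ptch1, the hedgehog receptor that is itself a transcriptional target of the pathway (chr13:63511533-63565520, minus strand), measured 169, 226, 103 and 79.1 CPM in p63alpha and 125, 135, 66.1 and 77.0 CPM in p63beta. WT3, KO2 and EP12 were low, and EP07 and EP08 were above all p63beta libraries. Its log2 fold change was -0.52 ± 0.34 (adjusted p = 0.9999).

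Edar (chr10:58600788-58675696, minus strand), the gene of the first promoter shown above and the receptor through which ectodysplasin activates NF-κB, measured 38.8, 53.2, 27.5 and 18.2 CPM in p63alpha and 31.0, 30.7, 11.9 and 27.4 CPM in p63beta. WT3 and EP12 were the 2 lowest, 1 of each genotype, and the log2 fold change was -0.45 ± 0.37 (edgeR adjusted p = 0.9999). Lef1, the DNA-binding partner of β-catenin (chr3:131110471-131223334, plus strand), measured 35.5, 52.7, 24.9 and 25.4 CPM in p63alpha and 30.9, 19.4, 9.09 and 17.8 CPM in p63beta. Of the 4 p63beta libraries 3 lay below all p63alpha libraries, and EP10 lay above 2 of them. With a log2 fold change of -0.84 ± 0.36, Lef1 had an unadjusted p of 0.0412 and an adjusted p of 0.9999 by edgeR.

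Sox9, a factor of the outer root sheath and of hair follicle stem cells (chr11:112782210-112787757, plus strand), measured 45.7, 59.3, 47.9 and 15.5 CPM in p63alpha and 53.4, 56.0, 39.9 and 28.4 CPM in p63beta. Here the 2 lowest were WT3 and KO2, and the log2 fold change of 0.08 ± 0.36 (edgeR adjusted p = 0.9999) became -0.20 without WT3. Lhx2, which helps to hold hair follicle stem cells in their undifferentiated state (chr2:38351308-38369728, plus strand), measured 82.4, 86.4, 83.7 and 19.9 CPM in p63alpha and 62.3, 69.0, 24.2 and 30.7 CPM in p63beta. In p63alpha, 3 libraries lay within a narrow band above all p63beta libraries, while WT3 was the lowest of all 8, giving a log2 fold change of -0.55 ± 0.47 (adjusted p = 0.9999).

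Gata3, a factor of the inner root sheath that is also made in the interfollicular epidermis (chr2:9857078-9878600, minus strand), measured 181, 133, 163 and 172 CPM in p63alpha and 135, 127, 118 and 103 CPM in p63beta. Only EP08 and EP10 crossed, and by a small margin. The log2 fold change was -0.43 ± 0.15, with an unadjusted p of 0.0177 and an adjusted p of 0.804 by edgeR. In the authors' deposited table its adjusted p was 0.438, the lowest of the 10. Gata3 also varied least between libraries of a genotype, 1.36-fold in p63alpha and 1.31-fold in p63beta from lowest to highest, whereas the other 9 varied between 1.65-fold and 4.4-fold.

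Msx2, a homeobox factor of the hair matrix and a target of BMP signals (chr13:53466881-53472780, minus strand), measured 5.56, 7.33, 14.6 and 3.51 CPM in p63alpha and 4.48, 4.74, 2.99 and 4.96 CPM in p63beta. EP09 alone was high. Its log2 fold change was -0.85 ± 0.41 (edgeR adjusted p = 0.9999), and -0.35 without EP09. Foxn1, the nude gene, which drives differentiation of the hair cortex and of suprabasal epidermis (chr11:78358288-78386558, minus strand), measured 29.0, 32.4, 19.6 and 21.6 CPM in p63alpha and 24.3, 23.3, 9.39 and 23.9 CPM in p63beta. Apart from EP12, the p63beta libraries lay inside the range of the p63alpha libraries, and the log2 fold change was -0.34 ± 0.30 (adjusted p = 0.9999). Hoxc13, which switches on hair keratins (chr15:102921131-102928814, plus strand), measured 9.17, 8.26, 13.9 and 3.64 CPM in p63alpha and 8.10, 4.90, 2.03 and 3.59 CPM in p63beta. In p63alpha, 3 libraries were above all p63beta libraries and WT3 was level with KO2, with a log2 fold change of -0.91 ± 0.47 (adjusted p = 0.9999). Across the alternatives run, the lowest adjusted p of any of the 10 in epidermis was 0.459, for Gata3.

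Some libraries were low or high for most of the 10 genes. EP12, a p63beta library, was lowest for Shh, Ptch1, Edar, Lef1, Msx2, Foxn1 and Hoxc13 and among the lowest 3 for all 10, at a mean of -0.97 on the log2 scale relative to the average library. EP08 was highest for 6 of the 10, at a mean of 0.68. WT3 and KO2, 1 of each genotype, were among the lowest 3 for 8 of the 10. Without EP12 the log2 fold changes were closer to 0, at -0.11 ± 0.21 for Foxn1, -0.21 ± 0.31 for Edar and -0.32 ± 0.38 for Shh, and Lef1 stayed at -0.61 ± 0.31 (adjusted p = 0.939, 0.918, 0.885 and 0.624). Leaving out EP08, the p63alpha library highest for most, moved Edar to -0.16 and Ptch1 to -0.22 (edgeR adjusted p = 0.99999 for both). The median of the 10 stayed between -0.75 and -0.35 under all alternatives run.

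Within the 6 EP libraries alone all 10 log2 fold changes were negative, from -0.04 ± 0.19 for Sox9 to -1.17 ± 0.41 for Msx2, and none was called (lowest adjusted p = 0.954). In the other naming series, where 1 library stands against 1 and no test is possible, KO2 against WT3 was -0.51 for Lef1, -0.41 for Shh and -0.74 for Gata3 but 0.88 for Sox9, 0.63 for Lhx2, 0.59 for Edar and 0.50 for Msx2 on the log2 scale. Ptch1, Foxn1 and Hoxc13 were at -0.04, 0.15 and -0.02 in that pair. Lef1, Shh and Gata3 thus were lower in p63beta in both naming series, Ptch1 and Hoxc13 were negative in both but near 0 in the pair, and Edar, Lhx2, Msx2, Foxn1 and Sox9 had opposite signs. With naming series as a term in the fit, log2 fold changes were -0.83 ± 0.37 for Lef1 and -0.43 ± 0.14 for Gata3 (edgeR adjusted p = 0.957 and 0.668).

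**Figure D2:**
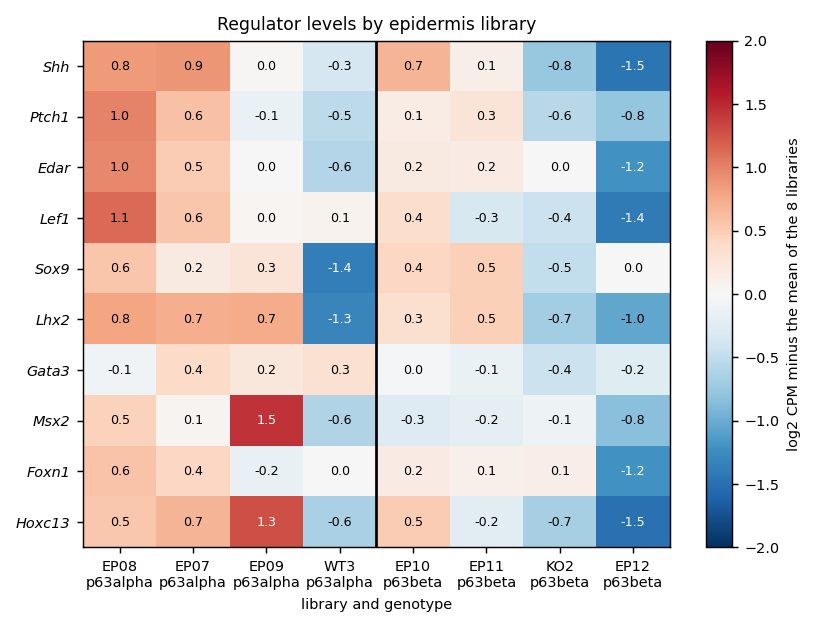
Log2 CPM of each regulator in each epidermis library minus the mean of the 8 libraries, with p63alpha libraries left of the black line and p63beta libraries right of it. EP12 is at a mean of -0.97 over the 10 genes, WT3 at -0.50 and KO2 at -0.40, while EP08 is at 0.68.

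With genotype means removed, Lhx2, Edar and Shh followed the mean of the other 9 regulators most closely over the 8 libraries, with Pearson r of 0.925, 0.898 and 0.891, and Gata3 did not follow it, with r of -0.008. The libraries share depth, scaling and handling, so these values describe the libraries only. Of 9960 other genes with a mean of at least 5 CPM, 563 had r of 0.9 or more with the mean profile of the 10. The 10 most alike were Calu, Smc6, Ccdc85c, Akt1, Sfpq, Mta1, Ndc1, Mllt11, Ptn and Ptms, with r from 0.996 to 0.988, and WT3 or EP12 was the lowest library for each of them. Median r was 0.75 over the 11 hedgehog pathway genes ranked, 0.56 over 33 Wnt genes, 0.60 over 14 BMP genes, 0.38 over 15 ectodysplasin genes and 0.62 over 15 outer root sheath and stem cell genes, beside 0.03 over all genes ranked. Melanocyte markers had a median r of 0.62 over 9 genes, so a high r was not limited to appendage pathways, while 15 hair shaft and inner root sheath products had -0.05.

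Markers of other cells varied between the same libraries. The 27 hair shaft and inner root sheath products, which include hair keratins and trichohyalin (Tchh), had summed levels of 1374 CPM in EP09, 1040 CPM in EP12, 335 CPM in WT3 and 320 CPM in KO2, against 54.3 to 215 CPM in the other 4 libraries. EP12, lowest for most regulators, therefore had the second highest sum of these products. Most of that sum came from Tchh at 683 CPM and Selenbp1, also on the list, at 157 CPM. Tchh at 200 CPM and Selenbp1 at 89.0 CPM likewise made up most of the sum in WT3. Krt14, the basal keratin whose promoter drives the Cre, was at 1769 CPM in EP12 and 1824 CPM in WT3 and between 3758.5 and 8014 CPM in the other 6. Trp63, like Krt14 on the list of keratinocyte markers, was lowest in WT3 at 259 CPM but highest in EP12 at 765 CPM. The 12 melanocyte markers, all detected and all with a positive log2 fold change, summed to 143 to 309 CPM in p63alpha and 360 to 539 CPM in p63beta epidermis, with no overlap. They include Ednrb, at 8.61 ± 2.48 CPM in p63alpha and 18.8 ± 2.52 CPM in p63beta (n = 4; edgeR adjusted p = 0.157). DESeq2 called Ednrb, Dct and Tyrp1 of them (adjusted p = 0.00144, 0.0147 and 0.0459). Fibroblast markers, 9 genes, summed to 113 to 221 CPM in p63alpha and 82.6 to 181 CPM in p63beta, and 15 dermal papilla markers to 28.2 to 60.4 CPM and 28.1 to 55.4 CPM. None of these lists had a defining marker at 0 in all libraries. Their part in the levels of the regulators was not tested.

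Among the signalling genes around the 10 regulators, none was called in epidermis by edgeR, and DESeq2 called Eda2r and Id1. Hedgehog pathway genes, other than Shh and Ptch1, had a lower mean in p63beta for 12 of 14 tested, with a median log2 fold change of -0.26. The lowest p belonged to Disp1, which releases the ligand from the cell, at 18.1 ± 4.42 CPM in p63alpha and 11.3 ± 3.38 CPM in p63beta (log2 fold change -0.68 ± 0.27, edgeR adjusted p = 0.907), and to the co-receptor Cdon (-0.53 ± 0.22, adjusted p = 0.977). Wnt pathway genes were lower for 29 of 39, with a median of -0.12. In that list the secreted inhibitor Wif1, also a dermal papilla marker, was at 1.12 ± 0.45 and the secreted Wnt deacylase Notum at -1.10 ± 0.46 on the log2 scale (adjusted p = 0.972 and 0.9999).

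The ectodysplasin list was balanced, with 7 of 18 lower and a median of 0.06. Eda2r, the receptor of the A2 form of ectodysplasin, measured 1.27 ± 0.564 CPM in p63alpha and 4.08 ± 0.498 CPM in p63beta epidermis (SD, n = 4). Its groups did not overlap, but its log2 fold change of 1.69 ± 0.38 did not pass the test (edgeR adjusted p = 0.195; DESeq2 adjusted p = 6.46e-04). BMP pathway genes were lower for 15 of 21, with a median of -0.13, while Id1, a target of BMP signals, was at 18.9 ± 6.06 CPM in p63alpha and 37.5 ± 8.98 CPM in p63beta with no overlap (0.98 ± 0.26, edgeR adjusted p = 0.347; DESeq2 adjusted p = 0.0455). Leaving out EP07 or leaving out EP09 each gave 11 of the 21 BMP genes lower, with a median of -0.00.

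Of 27 other appendage transcription factors tested in epidermis, 17 were lower, with a median of -0.10, and without EP09 12 of 27 were lower, with a median of 0.04. Sox21, a factor of the hair cuticle, was at -0.84 ± 0.31 and Runx1 at 0.59 ± 0.23 on the log2 scale (edgeR adjusted p = 0.862 and 0.927). For hair shaft and inner root sheath products the direction rested on 1 library, the p63alpha library EP09, which was highest for 24 of the 27. With all libraries 23 of 26 tested were lower in p63beta, with a median of -0.57, and without EP09 1 of 26 was lower, with a median of 1.63 and none called in either fit. On log2 TPM, limma gave 16 of 26 lower with a pseudocount of 1 and 8 of 26 with 0.1. Over all 13796 genes, 9467 were lower with a pseudocount of 1 and 9430 with 0.1. The hair keratin Krt86 was at 0.941, 1.25 and 0.267 CPM in EP07, EP08 and WT3, at 79.4 CPM in EP09 and at 1.55 to 7.83 CPM in p63beta. Its log2 fold change was -2.40 ± 1.58 with EP09 and 2.23 ± 0.69 without it (edgeR adjusted p = 0.9999 and 0.538). Krt82 likewise went from -1.69 ± 1.07 to 0.35 ± 0.79 (adjusted p = 0.9999 and 0.9995). Outer root sheath and stem cell genes were lower for 13 of 19, with a median of -0.21. Among these were Dio2, which activates thyroid hormone, at 4.17 ± 1.86 CPM in p63alpha and 1.75 ± 0.381 CPM in p63beta (adjusted p = 0.624), and Krt79, a keratin of the hair canal, at 546 ± 193 and 871 ± 80.3 CPM (adjusted p = 0.758).

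The second question was the same contrast in keratinocytes grown away from the dermis. In culture, Foxn1 had a lower and Hoxc13 a higher mean in p63beta, and the other regulators lay close to their p63alpha levels or too low to compare. Of the 10, 9 had enough counts to be tested and none was called by edgeR, where 0.101% of 13820 genes were called. Fitting the replicate number as a block raised the number of genes called from 14 to 37, or 0.268%, and still called none of the 9. DESeq2, with 1.53% of genes called, and the authors' deposited table, with 1.5%, called none either. Unadjusted p was under 0.05 for 2 of the 9, beside 6.85% of all genes. For 6 of the 9 the log2 fold change was negative, beside 50.3% of all genes, with a median of -0.11, and no gene of the 10 was without overlap, beside 12.3% of all genes tested.

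**Figure D3:**
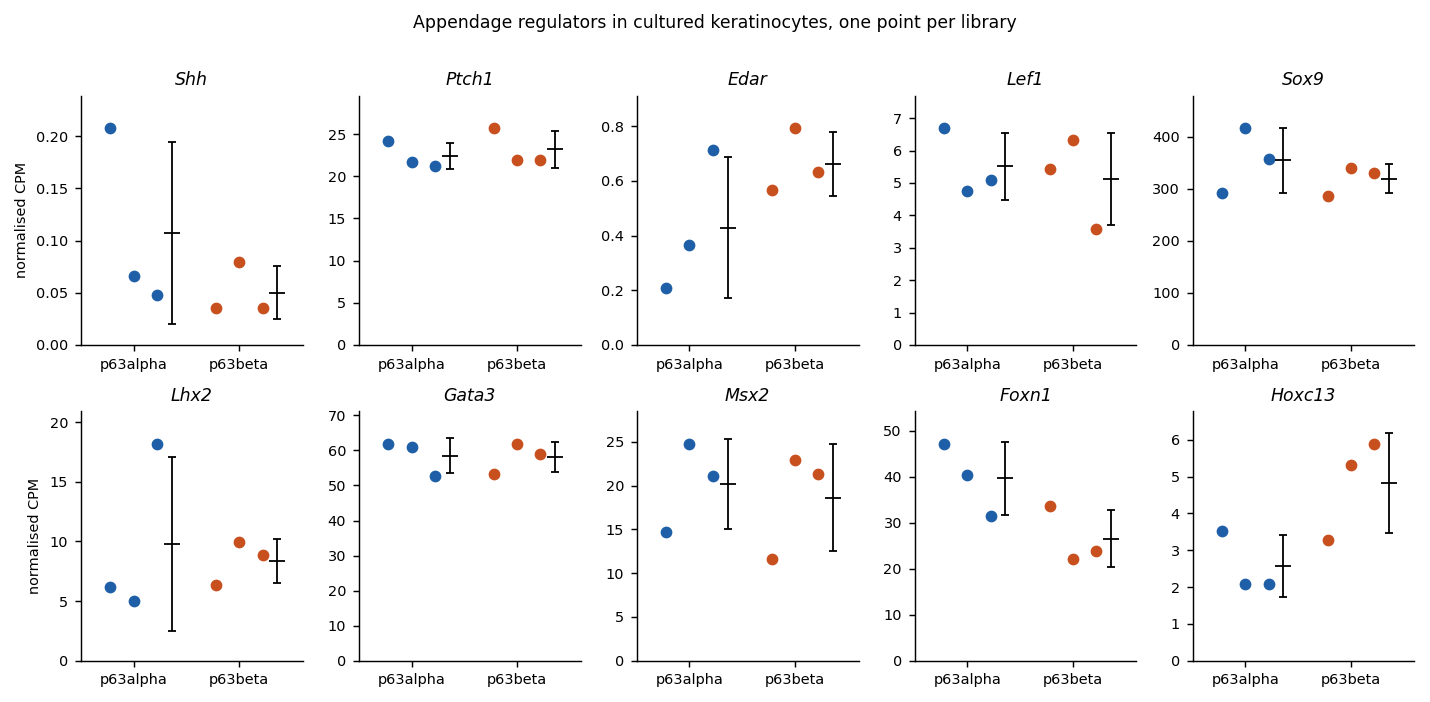
Levels of the 10 regulators in cultured keratinocytes, in CPM after TMM scaling on linear axes that start at 0, for 3 p63alpha (blue) and 3 p63beta (orange) libraries, with the mean ± SD in black. Foxn1 has 2 of 3 p63beta libraries below all p63alpha libraries and Hoxc13 has 2 of 3 above them, while Shh rests on 1 to 5 read pairs per library.

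Shh was near the limit of detection in culture, with 5, 2 and 1 read pairs in p63alpha libraries 1, 2 and 3 and 1, 2 and 1 in p63beta libraries 1, 2 and 3, so it was not tested and no difference was detectable at this depth. Ptch1 measured 24.2, 21.7 and 21.3 CPM in p63alpha and 25.7, 21.9 and 21.97 CPM in p63beta. The genotypes intermixed, with a log2 fold change of 0.05 ± 0.11 (edgeR adjusted p = 0.974). Edar was low, at 0.208, 0.365 and 0.714 CPM in p63alpha and 0.566, 0.793 and 0.631 CPM in p63beta. It rested on 5 to 20 read pairs per library, and its log2 fold change was 0.64 ± 0.50 (adjusted p = 0.907).

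Lef1 measured 6.69, 4.75 and 5.09 CPM in p63alpha and 5.45, 6.34 and 3.57 CPM in p63beta keratinocytes, fully intermixed (log2 fold change -0.11 ± 0.28, edgeR adjusted p = 0.980). Sox9 was the most abundant of the 10, with 291, 416 and 356 CPM in p63alpha and 287, 340.3 and 331 CPM in p63beta (-0.15 ± 0.15, adjusted p = 0.934). Lhx2 measured 6.15, 5.01 and 18.2 CPM in p63alpha and 6.33, 9.95 and 8.83 CPM in p63beta. Its p63alpha library 3 stood high, and without it the log2 fold change went from -0.22 ± 0.51 to 0.59. Gata3, with 61.7, 61.0 and 52.7 CPM in p63alpha and 53.4, 61.9 and 58.9 CPM in p63beta, had a log2 fold change of -0.01 ± 0.10 (adjusted p = 0.997). Msx2 measured 14.7, 24.8 and 21.1 CPM in p63alpha and 11.6, 22.9 and 21.3 CPM in p63beta. In both genotypes library 1 was lowest, and the log2 fold change was -0.12 ± 0.31 (adjusted p = 0.980).

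Foxn1 measured 47.1, 40.4 and 31.4 CPM in p63alpha and 33.7, 22.1 and 23.9 CPM in p63beta keratinocytes. Only p63beta library 1 reached the p63alpha range. The log2 fold change was -0.58 ± 0.22, with an unadjusted p of 0.0352 and an adjusted p of 0.675 by edgeR, and the lowest adjusted p among the alternatives was 0.160. Hoxc13 measured 3.53, 2.09 and 2.09 CPM in p63alpha and 3.29, 5.31 and 5.89 CPM in p63beta. In p63beta, 2 libraries lay above all p63alpha libraries. Its log2 fold change was 0.91 ± 0.34, with an unadjusted p of 0.0372 and an adjusted p of 0.688, and the lowest adjusted p among the alternatives was 0.234.

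The pathway lists were tested in the same keratinocyte fit. Of 13 hedgehog genes 5 were lower in p63beta, of 33 Wnt genes 18, of 16 ectodysplasin genes 4 and of 19 BMP genes 9, with medians of 0.16, -0.02, 0.15 and 0.03, and none was called by edgeR. Of the hedgehog genes, those of lowest p were Gli2, a transcription factor of the hedgehog pathway, at 11.9 ± 1.23 CPM in p63alpha and 15.9 ± 1.78 CPM in p63beta (n = 3; edgeR adjusted p = 0.619), and the hedgehog co-receptor Boc, at 60.1 ± 8.70 and 47.6 ± 2.89 CPM (adjusted p = 0.658). From the other lists, Nfkbia, the inhibitor and target of NF-κB, had a log2 fold change of 0.58 ± 0.14, the BMP effector Smad1 one of -0.38 ± 0.07, and Wnt16 one of -0.63 ± 0.19 (adjusted p = 0.447, 0.292 and 0.556). Opposite in sign to Smad1 and Wnt16 were Smad7 at 0.39 ± 0.11 and Wnt5a at 0.95 ± 0.32 (edgeR adjusted p = 0.517 and 0.622). DESeq2 called Nfkbia and Smad1 (adjusted p = 0.0246 and 0.00141), and the replicate block called Eda2r, at a log2 fold change of 0.75 (adjusted p = 0.0431).

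Other appendage transcription factors were lower for 13 of 23 tested in keratinocytes, with Dlx2 at 1.01 ± 0.25 and Sox21 at -0.51 ± 0.14 on the log2 scale (edgeR adjusted p = 0.447 and 0.480). DESeq2 called Dlx2 (adjusted p = 0.0257). Outer root sheath and stem cell genes were lower for 10 of 18. Aldh1a3, which makes retinoic acid, was at 243 ± 141 CPM in p63alpha and 87.2 ± 11.6 CPM in p63beta (adjusted p = 0.492). Of the hair shaft and inner root sheath products only 4 were tested in culture, and the hair keratins Krt33b, Krt34 and Krt35 were at 0 in all 6 libraries. S100a3, a calcium-binding protein of the hair cuticle, was called and rose from 5.34 ± 0.599 to 21.6 ± 3.45 CPM, a log2 fold change of 2.01 ± 0.17 (adjusted p = 0.0297). Without any 1 library it stayed between 1.93 and 2.14 but lost the call (adjusted p = 0.0563 to 0.307). With all libraries, DESeq2 and the replicate block also called S100a3 (adjusted p = 1.34e-17 and 0.0451). It was the only gene of the 7 pathway and follicle lists that edgeR called with all libraries and no block, while DESeq2 also called Aldh1a3 (adjusted p = 0.00606) and the genes named above.

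The third question was whether the genotype effect differs between epidermis and culture. An interaction fit over 14 libraries called 0 of 14545 genes, with 4.20% at an unadjusted p under 0.05, so none of the 10 regulators was called. Hoxc13 had the largest difference, with an epidermis effect lower than the keratinocyte effect by a log2 value of -1.81 ± 0.67 (unadjusted p = 0.0178, edgeR adjusted p = 0.99999). For Edar it was -1.08 ± 0.65, for Lef1 -0.72 ± 0.51 and for Gata3 -0.40 ± 0.19, each with the same adjusted p. Foxn1 had a negative effect in both kinds of sample, and its difference was 0.26 ± 0.42.

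**Figure D4:**
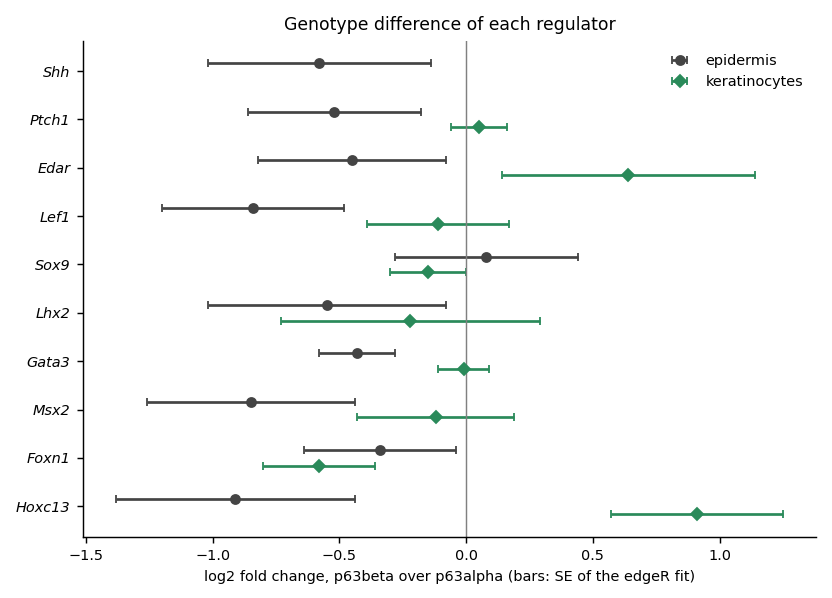
Log2 fold change of each regulator, p63beta over p63alpha, in epidermis (grey circles, 4 against 4 libraries) and keratinocytes (green diamonds, 3 against 3), with bars of 1 SE from the edgeR fit. In epidermis 9 of 10 points are left of 0 and in keratinocytes 6 of 9, Hoxc13 lies at -0.91 and 0.91, and no value passed the test.

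The order of the regulators by level was not the same in epidermis and culture, but the tables were counted by different tools and were not compared by a test. Per length, in TPM, p63alpha epidermis had Gata3 at 86.4 ± 10.3, Ptch1 at 58.4 ± 30.3 and Lhx2 at 54.9 ± 28.3 (SD, n = 4), with Ptch1 overlapping both and Lhx2 below every library of Gata3. Lef1, Sox9, Shh, Edar and Foxn1 followed at 18.8 ± 7.80, 17.9 ± 9.05, 17.2 ± 7.47, 16.4 ± 8.25 and 13.6 ± 4.0 TPM, within each other's spread. Msx2 at 6.64 ± 4.66 and Hoxc13 at 6.55 ± 3.61 TPM were lowest, with overlapping ranges. In p63beta epidermis Gata3 was again first, at 60.8 ± 12.3 TPM, and Msx2 and Hoxc13 were lowest, at 3.26 ± 0.642 and 3.18 ± 1.94 TPM, with overlapping ranges.

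In p63alpha keratinocytes, in FPKM, Sox9 was first at 85.7 ± 15.8 (SD, n = 3), and its lowest library, at 69.2, lay above every library of the other 9. Gata3 at 18.2 ± 1.33 and Foxn1 at 15.8 ± 2.91 FPKM overlapped, and Msx2 at 9.35 ± 2.44 lay below both. Ptch1 at 5.20 ± 0.283 FPKM lay below Msx2 and overlapped with Lhx2 at 4.31 ± 3.27, which overlapped with Lef1 at 2.24 ± 0.391. Hoxc13 followed at 1.06 ± 0.325 FPKM, and Edar and Shh were lowest at 0.117 ± 0.0724 and 0.0399 ± 0.0321 FPKM.

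Transcripts were separated in the epidermis table for Lef1, with 3, and for Lhx2 and Foxn1, with 2 each. The main Lef1 transcript carried 55.2% ± 10.4 of the gene's TPM in p63alpha and 62.5% ± 12.4 in p63beta (SD, n = 4), the second 32.8% ± 9.46 and 29.0% ± 5.58, and the third 12.0% ± 4.93 and 8.58% ± 7.11. The main Lhx2 transcript carried 69.5% ± 4.33 and 70.3% ± 6.22, and one Foxn1 transcript 48.7% ± 16.2 and 55.2% ± 25.3. None of the 7 shares passed an exact permutation test, two-sided, with a smallest p possible of 0.0286 and an adjusted p of 0.857 for each. A single share could not have passed, since that smallest p adjusts to 0.2 over 7 shares. Foxn1 shares ranged from 20.5% to 79.5% among p63beta libraries, so a shift of the size of the group difference was not detectable.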

How the data were processed

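The 10 regulators and the lists used around them were chosen with earlier results of these data known. Counting the regulators as a list and including cell type markers, there were 16 lists with 255 genes. The keratinocyte counts that the authors deposited are read pairs on RefSeq genes, made per the file headers with featureCounts 1.5.2 (strand setting 2, minimum overlap 25 bases, both ends required). FPKM of the same libraries were deposited too. For epidermis, the authors deposited expected counts and TPM, made with salmon per the submitters' processing notes. The authors' deposited DESeq2 tables give log2 fold changes with p-values, plain and adjusted. STAR is named there too, and STAR, salmon and their DESeq2 have versions not given in the sources used here. Coordinates are mm10. Not used were 14 columns of normalised values, 1 per library, in the DESeq2 tables. Keratinocyte symbols that had become dates (27) were restored, and 847 rows without a symbol were named by RefSeq or their ID.

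Expected counts were rounded to whole numbers. Each kind of sample was fitted alone in edgeR 4.0.16 (R 4.3.3) with TMM, the filterByExpr filter, robust dispersion and the quasi-likelihood F test, on all genes, with Benjamini-Hochberg adjustment and calls below 0.05. Log2 fold changes compare p63beta with p63alpha and carry the SE of the fit. The interaction fit took in the 14 libraries and the genes shared by the tables. Transcript shares of members with at least 2 transcripts at a mean of 1 TPM or more were compared by exact permutation. Likeness used log2(CPM + 0.01) minus the genotype mean. The scripts were tested on simulated data.

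Epidermis columns were read as p63alpha or p63beta from WT or KO in their names, with the keratinocyte header tying those words to the genotypes, and carry no replicate number. Keratinocyte libraries with the same number deviated together, with correlations of 0.553, 0.469 and 0.129 over 13820 genes, so by the rule used (each over 0.1) the numbers pair the libraries; the labels do not state a pairing, and libraries 3 and 2 correlated as well (0.141 and 0.159). Named genes are the 10 regulators, Trp63, the called genes or otherwise 2 genes of lowest p per list and kind of sample, and the 10 genes most like the regulators. Examples from that rule are given. Tchh, Tyrp1, Krt33b, Krt34, Krt35, Cd207, Epcam, Selenbp1 in epidermis and Eda2r in keratinocytes were named after their values were seen. Alternatives were RLE factors, no low-count filter, no robust estimation, DESeq2 1.42.0, limma 3.58.1 on logged FPKM or TPM (pseudocount 1 or 0.1), the replicate block, the naming series as a term or 1 series alone, transcript counts in place of TPM, and leaving out each library.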

Additional observations from a re-analysis of the deposited data

Results flagged for a closer look

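Within groups of 4 epidermis libraries, 66 group values were checked for a library far from the other 3, and 4 were found. Chance gives such a library in about 1 of 20 groups. Lhx2 in p63alpha epidermis was at 19.9 CPM in WT3, against 82.4 to 86.4 CPM in the other 3 libraries. Foxn1 in p63beta epidermis was at 9.39 CPM in EP12, against 23.3 to 24.3 CPM. The summed level of BMP pathway genes in p63beta epidermis was 637 CPM in EP12, against 825 to 842 CPM. The summed level of hair follicle outer root sheath and stem cell genes in p63alpha epidermis was 6767 CPM in EP09, against 4639.5 to 4918 CPM.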

How the results depend on the processing

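No call on any of the 10 regulators changed under any alternative run, the replicate block in keratinocytes included, since none was called by any of them. In epidermis the number of genes called was 32, with 155 by DESeq2, 8 with the 6 EP libraries alone and 10 to 28 when 1 library was left out. In keratinocytes it was 14, with 215 by DESeq2, 37 with the replicate block and 1 to 4 when 1 library was left out. Some signs reversed. In epidermis Sox9 went to -0.04 with the 6 EP libraries alone and ranged from -0.20 to 0.29 when 1 library was left out. In keratinocytes the leave-one-out ranges that crossed 0 were -0.29 to 0.09 for Lef1, -0.08 to 0.04 for Gata3, -0.32 to 0.13 for Msx2, -0.54 to 0.59 for Lhx2 and -0.03 to 0.09 for Ptch1. For the interaction they were -0.33 to 0.91 for Shh and -0.03 to 0.45 for Sox9. Differences in transcript share ranged from -3.24 to 1.23 percentage points for the smaller and from -1.23 to 3.24 for the larger Lhx2 transcript, and from -1.58 to 18.1 and from -18.1 to 1.58 for the 2 Foxn1 transcripts. The causes were not tested. Depth limits Shh and Edar in culture.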

Other observations

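Other marker lists gave these values. In keratinocytes, 9 muscle markers summed to 3112 CPM in p63beta library 3 and to 74.3 to 250 CPM in the other 5, and 7 endothelium markers to 41.9 CPM there and 5.68 to 13.9 CPM elsewhere. Fibroblast markers in culture summed to 45.5 to 171 CPM in p63alpha and 51.0 to 234 CPM in p63beta, dermal papilla markers to 39.5 to 70.9 and 49.6 to 109 CPM, and melanocyte markers to 487 to 1693 and 866 to 1058 CPM. In epidermis, Langerhans and T cell markers summed to 219 to 335 CPM in p63alpha and 175 to 314 CPM in p63beta. Epcam alone was at 116 to 187 CPM over the epidermis libraries, and Cd207 at no more than 0.173 CPM. Merkel cell markers summed to 43.9 to 75.0 CPM in p63alpha and 32.2 to 72.8 CPM in p63beta epidermis. Epidermal muscle markers summed to at most 29.0 CPM and endothelium markers to at most 1.87 CPM. Culture gave 203 to 344 CPM and 199 to 283 CPM for Langerhans and T cell markers, and 47.2 to 124 CPM and 35.9 to 207 CPM for Merkel cell markers. Of the 12 Langerhans and T cell markers, 5 had enough counts to be tested in culture. The sums of this list are no measure of immune cells.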
